A study of Mus musculus with 2 samples.

Results

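Ehf, Elf5 and Elf3 are epithelial members of the ETS family of transcription factors. The binding of Ehf was examined here at its own gene and at those of its 2 closest relatives. The tissue was the mouse corneal epithelium, the outer cell layer of the eye. Ehf peaks were taken when their midpoint lay within 50 kb of the gene bodies, in an mm9 window around the neighbouring genes Ehf and Elf5 (chr2:103050000-103345000) and a window around Elf3 (chr1:137095000-137210000). This rule used positions only, and 4 of the 15384 Ehf peaks met it, 2 in each window. The chromatin came from wild-type mice aged 2 to 3 months, whose strain is given both as CB6 and as C57Bl/6, with epithelium pooled over 15 animals and detached from the whole eye by dispase. From 24 ug of sonicated chromatin, Ehf was precipitated with an antibody named ESE-3A, after another name of Ehf. One library of the precipitate and 1 of input chromatin were sequenced with single-end reads of 50 bp. With 1 library in each group biological variation could not be measured, and read counts for single peaks were not analysed here, so the depth behind each peak is unknown. The input, which serves as the control, was likewise not analysed here.

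ETS factors share a DNA-binding domain, the ETS domain, that recognises a short core, GGAA, in the setting of flanking bases that differ between family members. Ehf, Elf3 and Elf5 are expressed mainly in epithelia. Ehf is known for roles in epithelial differentiation, Elf3 for the differentiation of the intestinal epithelium, and Elf5 for the trophoblast lineage and the milk-producing cells of the mammary gland. A transcription factor that binds at its own gene can regulate itself, and binding at the gene of a relative can link their levels. A peak records enrichment of DNA in the precipitate and gives neither the target gene nor an effect on it.

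The sequences under the 4 peaks are not shown, because no mm9 genome was used. To show the core in question, the promoters of these genes were taken from RefSeq (GRCm38.p6, 250 bases before to 50 after each gene start), where 2 of the 3 genes, Elf3 and Elf5, matched by symbol and Ehf did not. Elf3 has 1 listed promoter and Elf5 has 2. They are given 5′ to 3′ on the strand of the gene, with the core in capitals as GGAA or, when it lies on the other strand, as TTCC, and positions count back from the gene start. Elf3 has 4 cores:

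Elf3 at -235: gagggtgcGGAAtgacagat
Elf3 at -192: ggcctgatTTCCcagcaccg
Elf3 at -153: agtggcacGGAAtatgcaaa
Elf3 at -108: gaaggccaGGAAatccccag

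The first listed Elf5 promoter has 2 cores and the second has 1:

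Elf5, first promoter, at -171: ggctgccaTTCCaggaccct
Elf5, first promoter, at -103: acctgcctGGAAgcagtcat
Elf5, second promoter, at -173: ctgctcatTTCCtgggtccc

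GGAA on either strand was present in 96.0% of all 32817 RefSeq promoters of 300 bases, with a median of 3 matches, and 46.3% of them had at least the 4 matches of Elf3. The first Elf5 promoter had 2 matches, a number reached by 84.6% of promoters, so neither gene stood out by the core alone. The longer form GGAAGT, held by 23.8% of promoters, and CCGGAAGT, held by 3.89%, were searched on both strands and had 0 matches in the Elf3 promoter and in both Elf5 promoters. GGAAGT contains GGAA, and CCGGAAGT contains both shorter forms. A match is a run of letters and not a measured site, and whether any of these promoters lies under a peak was not analysed here.

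Around Ehf and Elf5, Ehf had 2 peaks, one near the bottom of the list by score and one near its middle, both inside the stretch spanned by this pair of genes and none in the 50 kb beyond either end of it. The span of the gene bodies follows from the rule by taking 50 kb off each end of the window, which leaves 195 kb from 103100000 to 103295000 on chromosome 2. The bounds are multiples of 5 kb, so distances to them are approximate. The mm9 limits of each gene were not used, so a peak could not be assigned to an exon, an intron or the stretch between the genes. In the RefSeq gene order of GRCm38.p6, Ehf precedes Elf5 on chromosome 2, and 2 long noncoding genes, A930006I01Rik and BC016548, lie between them. Apip is the next coding gene before Ehf, and Cat, which encodes catalase, the next after Elf5.

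The first peak of the pair, chr2:103144997-103145271, was 274 bp wide and had a score of 58.73. The score is the authors' value for each peak, and its meaning is not stated. It was used only to rank peaks within this list, where it ran from 50.01 to 3100 with a median of 86.2 and quartiles of 66.9 and 125.2. At 58.73 the peak ranked above 10.9% of all peaks, and above 11.6% of the 1193 peaks on its chromosome. It was thus close to the lowest score listed and had the lowest score of the 4 peaks. Among the 1246 peaks of similar width, within 10% of its own, the median score was 75.0 and it ranked above 11.6%. Its midpoint lay 45.1 kb above the lower end of the gene span and 149.9 kb below the upper end.

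The second peak, chr2:103174819-103175067, was 248 bp wide and had a score of 84.65, the highest of the 4 but still under the median of the list. It ranked above 48.7% of all peaks and above 54.4% of the 891 peaks of similar width. Its midpoint lay 74.9 kb above the lower end of the gene span and 120.1 kb below the upper end. Both midpoints therefore lay below the centre of the span, by 52.4 kb and 22.6 kb, on the side where the RefSeq order places Ehf. The second was nearer to the centre than to the lower end. Which of the genes each peak is closer to was not determined. The gene order was not checked in mm9. A gap of 29.5 kb separated these peaks.

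The rest of the region was without listed peaks over long distances. Below the first peak the next one lay 166.3 kb away, a gap longer than 74.6% of the gaps between neighbouring peaks in the list. Above the second peak the gap was 231.4 kb, longer than 81.9% of gaps, and it took in the upper 120.1 kb of the gene span, towards the end where the RefSeq order places Elf5. The median gap in the list was 66.7 kb. Why a stretch holds no listed peak cannot be told, because the authors' cut-off and the depth of the library are unknown. Weaker binding there was not assessed. The peaks that bordered the region scored higher than those within it. The one below, chr2:102978341-102978676, had a score of 142.14 and its midpoint was 71.5 kb outside the window. Above, a pair of peaks 12 bp apart, chr2:103406502-103406945 and chr2:103406957-103407615, had scores of 104.21 and 95.7, with the nearer midpoint 61.7 kb outside.

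Around Elf3, Ehf also had 2 peaks of less than median score, 1 within the approximate gene span and 1 beyond it. The span implied by the rule is 15 kb, from 137145000 to 137160000 on chromosome 1. In the RefSeq order the next coding genes are Gpr37l1 before Elf3 and Rnpep, an aminopeptidase gene, after it. RefSeq lists the Elf3 promoter on the minus strand, so the gene starts towards the upper end. That strand was not checked in mm9.

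The peak within the span, chr1:137147230-137147629, was 399 bp wide and had a score of 69.53. It ranked above 28.6% of all peaks, and above 50.3% of the 3928 peaks of similar width, whose median score was 69.3. Other peaks in the list had this same score of 69.53, and such ties are not counted as lower. The peak was thus typical of peaks of its width. Its midpoint was 2.43 kb inside the lower end of the span, away from the end where the RefSeq strand places the gene start. That distance is smaller than the 5 kb to which the bounds are rounded, so whether the peak lies in the body of Elf3 or just beside it cannot be told from the rule.

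The other Elf3 peak, chr1:137180006-137180675, was 669 bp wide and had a score of 79.38, above 42.5% of all peaks. Its midpoint lay 20.3 kb beyond the upper end of the span, on the side where the RefSeq order places Rnpep. It was the widest of the 4 peaks and wider than 94.5% of the list. The 846 peaks of similar width had a median score of 109.6, above that of the whole list, and this peak ranked above 17.4% of them. The 2 Elf3 peaks were 32.4 kb apart. The next peak below them, chr1:137051611-137051923, was 95.3 kb from the first and had a score of 187.99, above 92.4% of the list. Its midpoint was 43.2 kb outside the window. The next peak above, chr1:137326710-137327243, was 146.0 kb from the second and had a score of 55.84, above 6.98% of the list and lower than all 4 members.

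**Figure D1:**
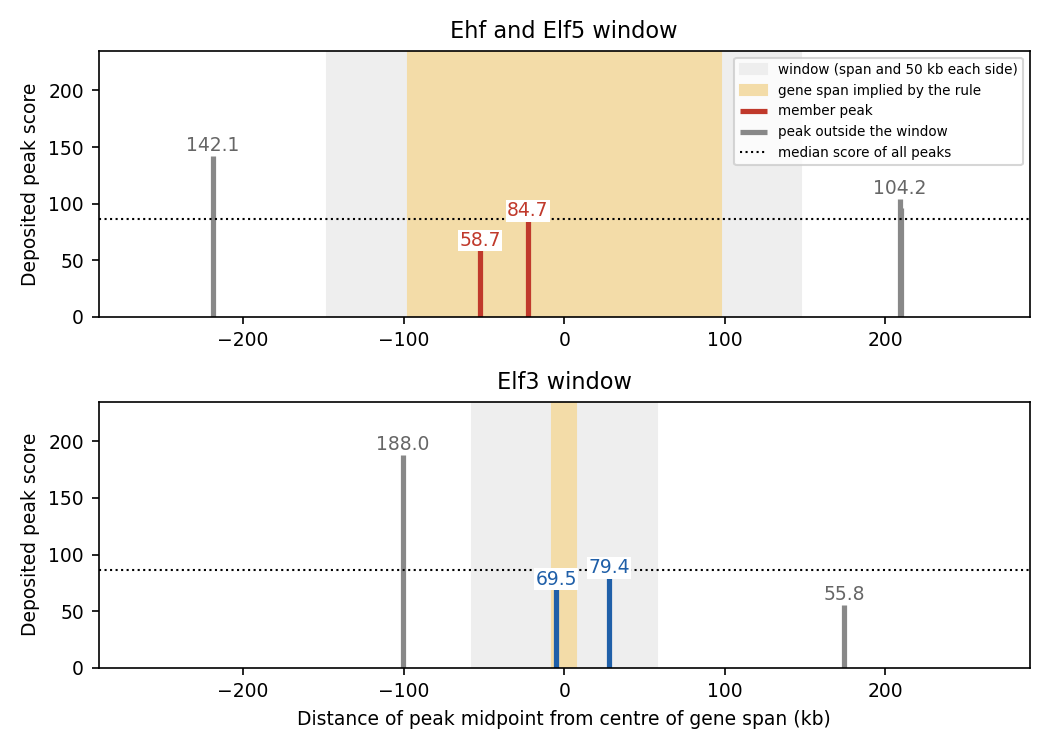
Deposited Ehf peak scores (vertical axis) against the distance of the peak midpoint from the centre of the gene span in kb (horizontal axis), for the Ehf and Elf5 window (top) and the Elf3 window (bottom), with bars from 0 for single peaks. The 4 member peaks stay under the dotted line at the list's median of 86.2, as does the nearest peak above the Elf3 window (55.84), while the other nearest peaks outside the windows (142.14, 104.21 and 187.99) exceed it.

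Set side by side, the 4 peaks differed in score and in width. Their scores ran from 58.73 to 84.65 with a median of 74.5, so all 4 were under the list's median of 86.2, ranking above 10.9% to 48.7% of the list. None came near the upper quartile of 125.2. Their widths ran from 248 to 669 bp with a median of 336.5 bp, against 368 bp in the list, and the Elf3 peaks were both wider than those at Ehf and Elf5. None of the 4 belonged to the narrow peaks under 200 bp, which made up 22.0% of the list. With 4 peaks from 1 library, these are descriptions and no difference between the loci was tested.

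**Figure D2:**
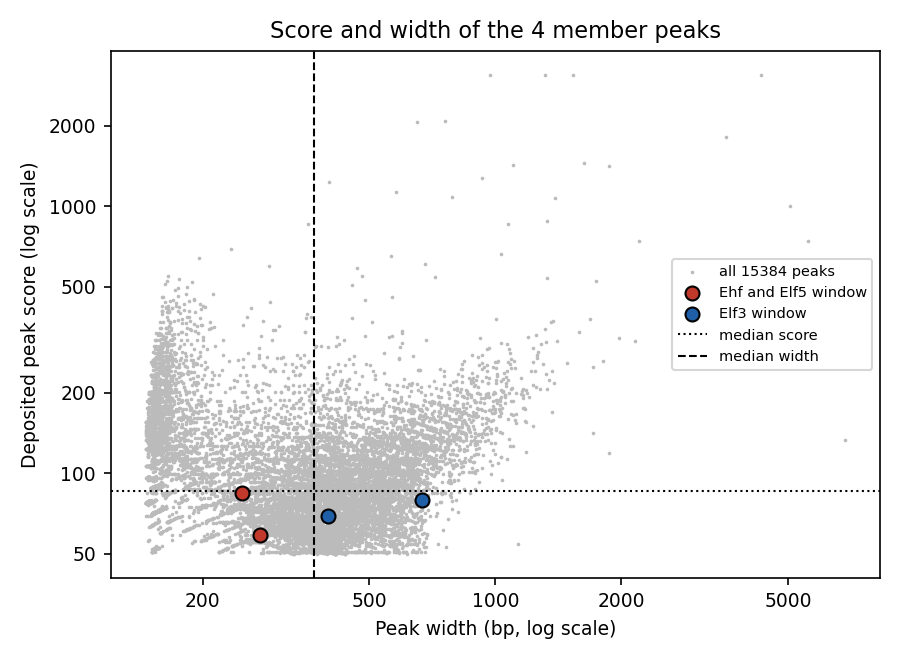
Deposited score against width in bp, both on log scales, for all 15384 Ehf peaks (grey) with the 4 peaks at Ehf and Elf5 (red) and at Elf3 (blue) picked out; lines mark the medians of 86.2 and 368 bp. The 4 points are below the median score, far from the highest scores, and none is among the narrow peaks under 200 bp. The widest, at Elf3, is wider than 94.5% of the list.

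The distance from each peak to its nearest neighbour was close to the list's median, while the gaps on the outer side of each pair were longer than the median gap. No member had another peak within 10 kb, which 27.2% of all peaks did, and so neither locus held a cluster at that distance. The nearest neighbour of each member was the other peak of its own window, at 29.5 kb or 32.4 kb, against a median of 30.2 kb over all peaks. The outer gaps, at 95.3, 146.0, 166.3 and 231.4 kb, were longer than 59.7% to 81.9% of the gaps in the list.

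The number of peaks at Ehf and Elf5 was close to that of the autosomes for a stretch of that length. The window of 295 kb held 2 peaks, or 6.78 per Mb (95% exact Poisson interval 0.821 to 24.5), against 6.10 per Mb over the autosomes and 6.56 per Mb on chromosome 2. At the autosomal density 1.80 peaks would be found in such a window. When the 19 autosomes were divided into 8372 tiles of the same length, 41.6% of tiles held at least 2 peaks, 35.9% held none and 27.4% held more than 2. The peaks covered 522 bp of the window, or 0.177%, against 0.229% of the autosomes.

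At Elf3 the density of peaks was higher, though the interval was wide. The window of 115 kb held 2 peaks, or 17.4 per Mb (95% exact Poisson interval 2.11 to 62.8), and the autosomal density of 6.10 and the density of chromosome 1, 4.60 per Mb, both fell within that interval. Of 21488 autosomal tiles of this length, 17.2% held at least 2 peaks, 59.5% held none and 7.42% held more than 2. The Elf3 peaks covered 1068 bp, or 0.929% of the window. The intervals of the windows overlapped, and a difference in density between the loci was not tested. These intervals cover counting error only and treat peaks as placed independently, which grouped peaks are not.

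**Figure D3:**
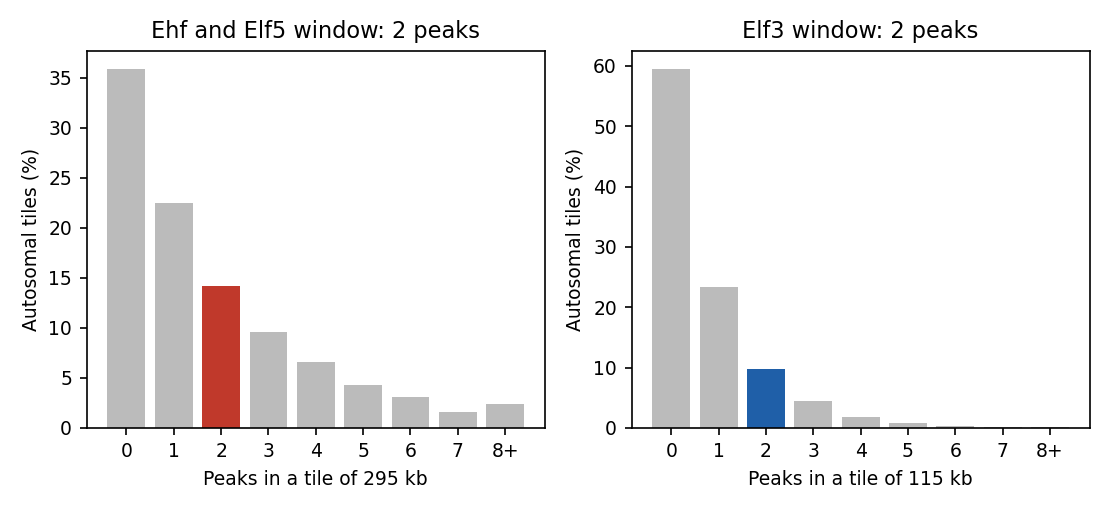
Share of autosomal tiles in percent (vertical axis) by the number of Ehf peaks in a tile (horizontal axis, 8 or more joined), for tiles as long as the Ehf and Elf5 window (left, 295 kb) and the Elf3 window (right, 115 kb). The coloured bars mark tiles with 2 peaks, the number in each window, and at least 2 peaks were found in 41.6% and 17.2% of tiles.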

How the data were processed

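Ehf ChIP-seq and input libraries, 1 of each, were grouped by their titles. Bowtie 0.12.7 and bedtools 2.11.2 are listed in the submitters' processing notes, with mm9 as the build. Each row of the deposited file holds a peak's position and its score, whose meaning the authors do not state. All 15384 peak names begin with MACS_peak, but how the caller was run, and how it used the input, is not given in the sources. If the score is a log p-value, as older MACS versions report, it reflects read depth as well as enrichment. Whether starts count from 0 or 1 is not known.

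The windows were read from the rule for the loci. All peaks in them are described, and the nearest peaks outside each window. The members and the lists were chosen with earlier results of these data known. Percentiles are shares of the list with a lower score, width or gap. Tiles began at base 1 of each chromosome, on mm9 lengths from GenomeInfoDb 1.38.1, with incomplete end tiles left out and unsequenced stretches kept. No peak ended beyond its chromosome. Gaps were measured edge to edge. No test was made. Tile counting was tested on simulated data. Peaks at other ETS genes, sequences under peaks and comparison of the 3 proteins were not analysed here. Python 3.11.15, numpy 2.4.6, pandas 2.3.3, scipy 1.17.1 and matplotlib 3.10.9 were used.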

Additional observations from a re-analysis of the deposited data

How the results depend on the processing

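Of 16 alternatives for the number of peaks in the 2 windows, 11 kept it within 1.5 times of the reported 2. Some of the 11, dropping peaks under 200 bp and merging peaks up to 1 kb apart, could not change it. All 4 peaks were at least 248 bp wide and at least 29.5 kb from any other peak. Restricting the list to scores at or above its median left 0 peaks in each window, by construction, since all 4 score lower. With a flank of 200 kb, chosen after seeing the data, the Ehf and Elf5 window held 5 peaks and the Elf3 window 4, and with no flank, also chosen after seeing the data, 2 and 1. A flank of 100 kb added 1 peak at Elf3, which gave 3. The median score of the members was 74.5 to 79.4 in all 3 of its alternatives. A flank of 25 kb and a minimum width of 200 bp kept the same 4 peaks and so gave 74.5. Only the flank of 100 kb changed the set, and it gave 79.4. The share of tiles with at least 2 peaks was 44.2% on chromosome 2 alone against 41.6% on the autosomes, and 12.6% on chromosome 1 alone against 17.2%. No members were chained at 5, 10 or 20 kb, which follows from the gaps of 29.5 and 32.4 kb within the pairs. The unknown read depth limits all values. The alternative for protein alignment was not run. No paired analysis was possible because there was only 1 library per group.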
